A study of Homo sapiens with 3 samples.

Results

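The 10 promoters described here, those of REEP4, GCDH, SSBP4, CELSR2, PCMTD2, PAK4, FJX1, ASH2L, STK35 and TMCO3, carried strong CRY1 peaks whose summits had no canonical E-box within 50 bp. An E-box is the sequence CACGTG, and a summit is the base of highest read pileup in a peak. The genes were chosen by measured values: the fold enrichment of the peak, the absence of CACGTG and the presence of a shared AT-rich word of 7 bases (7-mer) near the summit. Their strength, their lack of an E-box and their 7-mer are therefore given as descriptions, with no test. A peak was assigned to a gene when its summit lay within 1 kb of any annotated transcription start site (TSS) of that gene. By this rule, all 10 genes had a peak, and together they held 16 of the 2551 peaks in the list. The strongest peak of each gene is called its main peak, and the other 6 peaks lay at REEP4, PAK4, FJX1 and STK35.

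CRY1 occupancy was measured by chromatin immunoprecipitation and sequencing (ChIP-seq) in C4-2 cells, a castration-resistant line of prostate cancer that is long established in culture. All 3 libraries were labelled Veh and came from cells in hormone-proficient medium: 2 CRY1 immunoprecipitates and 1 input, with no second condition or line. Peaks were called on the combined replicates, so no peak value has a replicate error, sequencing depth is unknown from the list, and no test between samples was possible. The identity of the cells was not checked, since a peak list holds no expression values, and intervals below (Wilson, 95%) cover the counting of windows only.

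CRY1 is a transcriptional repressor of the circadian clock and lacks a classical DNA-binding domain of its own. It is brought to DNA by partners, above all the activator pair CLOCK and BMAL1, which binds the E-box. Summits without an E-box are common in such a map: of 1650 promoter summits, those at most 1 kb from any TSS, 920 (55.8%) had no CACGTG within 50 bp. The 10 main peaks were the strongest 10 of the 44 promoter peaks that combined no E-box with the 7-mer.

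The word shared by all 10 genes was CTTTAAG, which reads CTTAAAG on the other strand. No other 7-mer was shared by more than 7 of the 10 genes. Those shared by 7 were the word moved 1, 2 or 3 bases towards its 5′ end, with C before it. The sites of 8 genes are shown from 10 bases before the word to 10 bases after it, read 5′ to 3′ on the strand where it reads CTTTAAG. They were read from GRCh37 (hg19), the build to which the reads were aligned, and the capitals mark the 7-mer.
GCDH, chr19:13001791-13001817, minus strand: aggctagcccCTTTAAGaagcggacgg
SSBP4, chr19:18530124-18530150, plus strand: gccatcgcccCTTTAAGagctgcgccc
CELSR2, chr1:109792094-109792120, plus strand: ggcgttgccgCTTTAAGgcggccgcgg
PCMTD2, chr20:62887010-62887036, plus strand: gccatcacccCTTTAAGtgccaggccc
PAK4, chr19:39616187-39616213, plus strand: gtcatttcccCTTTAAGgacctcagtg
FJX1, chr11:35639825-35639851, plus strand: gccatcgccgCTTTAAGtggaagagga
STK35, chr20:2083295-2083321, minus strand: gccgcggcccCTTTAAGacggaagcca
TMCO3, chr13:114145297-114145323, minus strand: tcactgccccCTTTAAGaggcggggcg

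The bases before the word were also shared, although the rule did not use them. In all 10 genes, C stood at positions -3 and -2, counted back from the first base of the 7-mer. At position -1, 7 genes had C and 3 had G, so that each site read CC, then C or G, then CTTTAAG. The bases after the word varied: the first was A in 4 genes, G in 4 and T in 2. Upstream, SSBP4, PCMTD2 and FJX1 also had GCCATC within the 10 bases before the word, a hexamer picked out after the sequences were seen. It preceded 0 of 36 copies of the word at promoter summits of other genes without an E-box (interval up to 9.64%), against 3 of 10 here (interval 10.8 to 60.3%). Since the hexamer was picked from these 10 genes, no difference can be read from these counts.

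Whole summit windows, the summit with 50 bp on each side, are shown for GCDH and CELSR2, whose windows are free of annotated exons and hold strong peaks in unlike sequence. The GCDH window was 57.4% GC with 3 CpG, and the CELSR2 window was 73.3% GC with 12 CpG.
GCDH, chr19:13001784-13001884, minus strand: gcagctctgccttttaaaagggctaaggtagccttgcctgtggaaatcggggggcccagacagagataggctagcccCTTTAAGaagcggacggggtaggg
CELSR2, chr1:109792029-109792129, plus strand: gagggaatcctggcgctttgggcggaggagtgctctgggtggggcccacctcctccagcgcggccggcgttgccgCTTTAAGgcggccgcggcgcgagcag

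The 7-mer was an AT-rich word inside promoter sequence that was GC-rich in most of the 10 genes. The median GC content of the 10 summit windows was 73.3% (range 54.5 to 81.2%), with PAK4 lowest and SSBP4 highest. At the 872 promoter summits of other genes with neither E-box nor 7-mer, the median was 69.3% (quartiles 61.4 and 75.2%). The windows of PAK4 and GCDH (57.4%) lay below the lower of these quartiles. The number of CpG in the window ranged from 3 at GCDH and PAK4 to 20 at SSBP4 (median 11, against 9 at those 872 summits). At the 34 promoter summits of other genes with the 7-mer and no E-box, the medians were 67.8% GC and 7.5 CpG.

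Each of the 10 main summits lay upstream of the nearest annotated TSS of its gene, and each 7-mer did too. The distance from summit to TSS ranged from 13 to 227 bp (median 82.5 bp), and 6 of 10 lay within 100 bp. Among promoter summits of all other genes, 53.7% lay upstream of the nearest TSS (878 of 1634, interval 51.3 to 56.1%), and 40.2% lay within 100 bp (657). At the 34 other promoter summits with the 7-mer and no E-box, 24 lay upstream (70.6%, interval 53.8 to 83.2%). Of these 34, 15 lay within 100 bp (44.1%, interval 28.9 to 60.5%). The interval for 6 of 10 includes this share and the 40.2%. The 7-mer faced the same way as the gene in 6 cases and the opposite way in 4 (GCDH, ASH2L, STK35 and TMCO3). Relative to the TSS, its centre lay between -9 bp (SSBP4) and -229 bp (STK35), so it had no fixed spacing to the start of transcription.

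**Figure D1:**
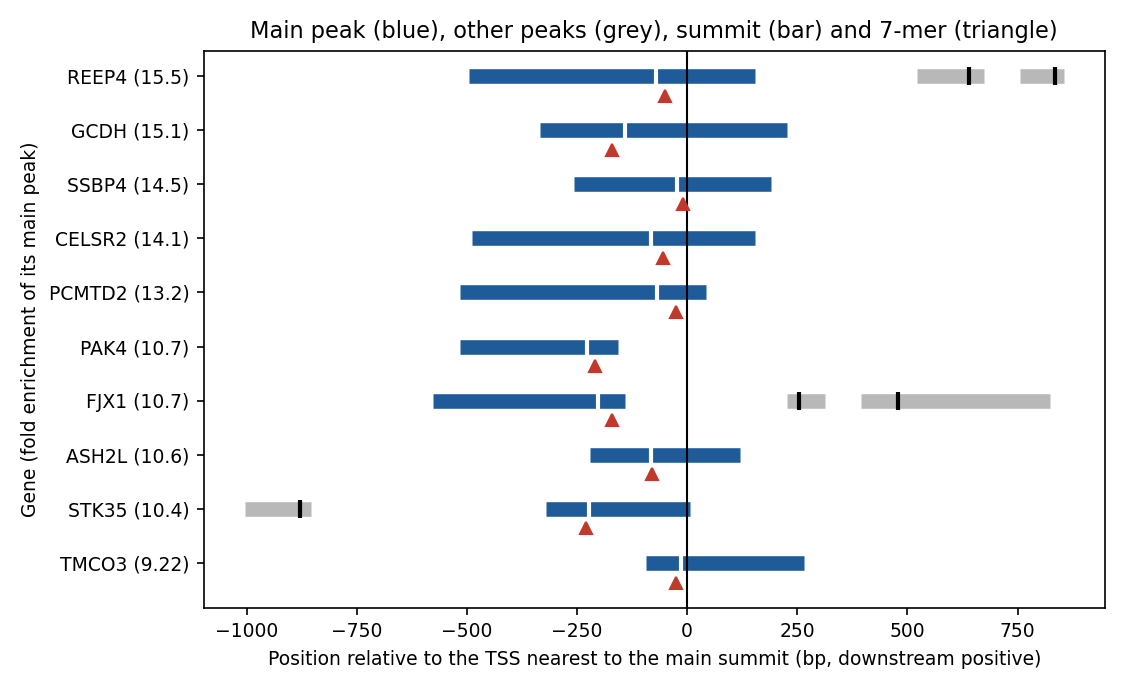
Position of the CRY1 peaks of the 10 genes relative to the annotated TSS nearest to the main summit (0 on the horizontal axis, in bp, with downstream positive and all genes drawn left to right), with genes ordered by fold enrichment. Blue bars are main peaks, grey bars are other peaks of the same gene, vertical marks are summits and red triangles are the 7-mer; the second PAK4 peak, at another TSS, is not drawn. All 10 main summits and all 10 triangles sit left of the TSS.

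The strongest of the 10 was at REEP4, which encodes a protein that shapes the endoplasmic reticulum and clears it from chromosomes in mitosis (ENSG00000168476). Its main peak (chr8:21999309-21999959) was enriched 15.5-fold with a −log10 q of 43.2, was 651 bp wide and had its summit 70 bp upstream of the TSS. Fold enrichment, as the authors' peak caller gave it, divides the summit pileup by the local background without a log. REEP4 ranked 36th by fold among the 1650 promoter peaks. GCDH, the mitochondrial glutaryl-CoA dehydrogenase of lysine and tryptophan breakdown (ENSG00000105607), had a fold enrichment of 15.1 (chr19:13001640-13002200, −log10 q 40.1, 561 bp wide, summit 140 bp upstream).

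SSBP4, a gene of the single-stranded DNA-binding protein family (ENSG00000130511), had a fold enrichment of 14.5 (chr19:18529889-18530337, −log10 q 39.3, 449 bp wide). Its summit lay 23 bp upstream of the nearest TSS and within an intron of a longer SSBP4 transcript. CELSR2, a seven-pass cadherin of the planar cell polarity pathway (ENSG00000143126), had the highest −log10 q of the 10, at 44.1, with a fold enrichment of 14.1 (chr1:109791672-109792316, 645 bp wide, summit 82 bp upstream). PCMTD2, which encodes a protein with a domain like that of the isoaspartate repair methyltransferase (ENSG00000203880), had a fold enrichment of 13.2 (chr20:62886533-62887091, −log10 q 37.4, 559 bp wide, summit 69 bp upstream). These 5 genes had the highest fold enrichments of the 10, at 13.2 to 15.5, and widths of 449 to 651 bp.

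The other 5 genes had lower and narrower peaks, with fold enrichments of 9.22 to 10.7 and widths of 329 to 436 bp. The genes are divided here by fold enrichment, with which width moves, so the gap between these ranges is not a result. PAK4, a kinase that acts downstream of the GTPase CDC42 (ENSG00000130669), had a fold enrichment of 10.7 (chr19:39615894-39616253, −log10 q 22.8, 360 bp wide). Its summit was the farthest of the 10 from a TSS, 227 bp upstream. FJX1, the human counterpart of the Drosophila gene four-jointed (ENSG00000179431), also had a fold enrichment of 10.7 (chr11:35639432-35639867, −log10 q 27.5, 436 bp wide, summit 203 bp upstream).

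ASH2L, a core subunit of the complexes that methylate histone H3 at lysine 4 (ENSG00000129691), had a fold enrichment of 10.6 (chr8:37962791-37963132, −log10 q 27.5, 342 bp wide, summit 83 bp upstream). In STK35, which encodes a serine/threonine kinase (ENSG00000125834), the main peak had a fold enrichment of 10.4 (chr20:2083216-2083544, −log10 q 21.6, 329 bp wide). This summit lay 222 bp upstream of the start of a shorter transcript but 842 bp downstream of the canonical TSS, in an intron, so STK35 was the only gene of the 10 whose main summit was not upstream of the start of its canonical transcript. TMCO3, a multi-pass membrane protein gene (ENSG00000150403), had the weakest main peak, with a fold enrichment of 9.22 (chr13:114145242-114145601, −log10 q 17.2, 360 bp wide, summit 13 bp upstream). It was also the only one with the TSS of another gene, DCUN1D2, within 1 kb of the summit.

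The main peaks were narrow for their strength. Their median width was 442 bp (range 329 to 651 bp), whereas the 144 promoter peaks of other genes with a fold enrichment in the same range had a median width of 700 bp (quartiles 511 and 929 bp). Across all 1650 promoter peaks, width and fold enrichment had a Spearman correlation of 0.595, which describes peaks of the same pooled libraries. REEP4, with the widest main peak, ranked 36th by fold but 180th by width, and STK35, with the narrowest, ranked 134th and 536th. At such a correlation, peaks chosen for high fold enrichment tend to rank lower by width, so these ranks add nothing to the comparison with the 144 peaks. The summit lay between 22.5% (TMCO3) and 85.6% (FJX1) of the way along the peak, so it was often far from the midpoint. Since fold enrichment chose the genes and width moves with it, the difference in width was not tested.

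**Figure D2:**
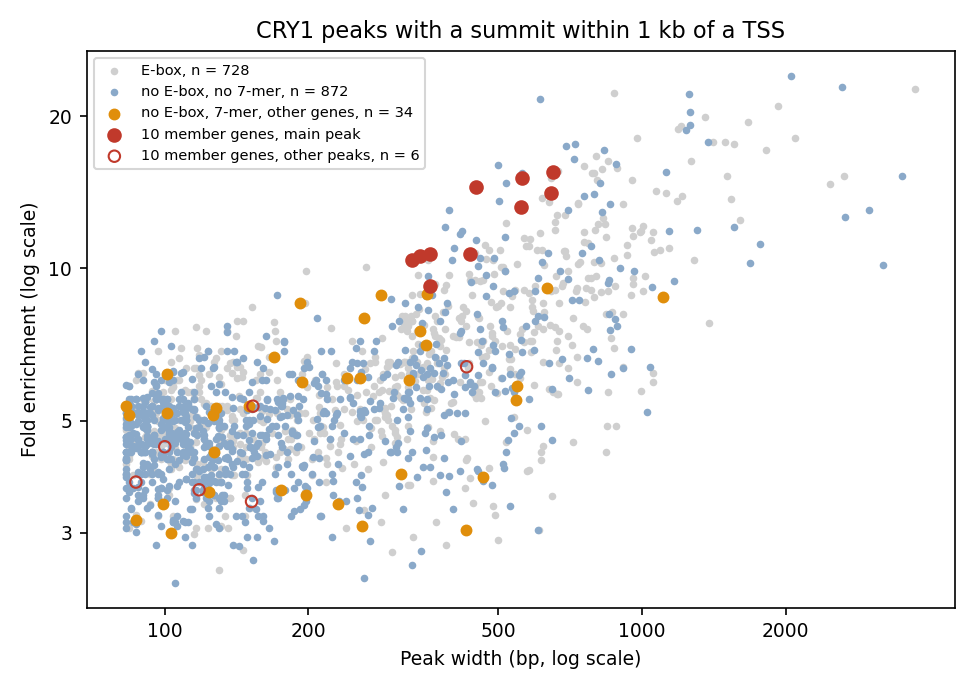
Fold enrichment against width in bp (both axes logarithmic) for the 1650 CRY1 peaks with a summit within 1 kb of a TSS; each point is a peak. The 10 main peaks (filled red) lie between 329 and 651 bp and on the narrow side of the cloud at their fold enrichment, while the 6 other peaks of the same genes (open red) lie at 3.46 to 6.39.

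The limit in strength that set the 10 genes apart was narrow. Among promoter summits without an E-box, 73 had a fold enrichment at or above that of TMCO3 (9.22), of which 10 held the 7-mer and 63 did not. Just below, ERRFI1, an inhibitor of the EGF receptor, had a fold enrichment of 9.13 (chr1:8086323-8086953) and held the 7-mer 22 bp from its summit, 130 bp upstream of the TSS. The next with the 7-mer was DAGLB, a diacylglycerol lipase gene, at 8.89 (chr7:6523765-6524119). Just inside and outside the limit without the 7-mer were CHKA-DT at 9.23 and DCAF4 at 9.19.

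The 6 other peaks of these genes were weaker (fold enrichment 3.46 to 6.39), all lay downstream of a TSS, and none held the 7-mer within 50 bp of the summit. Among promoter summits of all other genes, 53.7% lay upstream of the nearest TSS and 2.45% held the 7-mer. FJX1 had a peak in its coding sequence (chr11:35640403-35640831, fold enrichment 6.39) with CACGTG 9.5 bp from the summit, measured to the centre of the E-box. STK35 likewise had a weak peak in coding sequence (chr20:2082533-2082684, 3.46) with CACGTG 37.5 bp away. At REEP4, intronic peaks of 5.34 and 4.44 lay 228 and 424 bp downstream of their nearest TSS, and at FJX1 a further peak of 3.78 lay 255 bp downstream. The second PAK4 peak (3.65) lay at a TSS 170 bp away but 31086 bp downstream of the canonical start. FJX1 and STK35 thus each had a main peak with the 7-mer and a weaker, separate peak with CACGTG. An E-box lay within 50 bp of 2 of the 6 other summits (33.3%), and of 730 of all 1650 promoter summits (44.2%).

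CACGTG was also counted over the whole of each main peak. Of the 10, only the GCDH peak held a CACGTG anywhere in it, 350 bp from the summit. It lay in 4 of the 34 peaks of other genes with the 7-mer (11.8%, interval 4.67 to 26.6%) and in 182 of the 872 without the 7-mer (20.9%, interval 18.3 to 23.7%). In windows of 250 bp to each side, only FJX1 held one, 120 bp from the summit and outside its main peak. For CELSR2, PCMTD2 and ASH2L no CACGTG was found within 5 kb of the summit, and for REEP4 and TMCO3 the nearest lay 1466 and 2564 bp away. Among the other strong summits without an E-box, 24 of the 63 (38.1%, interval 27.1 to 50.4%) had CACGTG within 250 bp, against 1 of 10 here (10%, interval 1.79 to 40.4%). Among all 872 summits with neither E-box nor 7-mer, the share was 38.6% (337). At the 34 summits of other genes with the 7-mer it was 29.4% (10, interval 16.8 to 46.2%). The intervals of the 63 and the 10 overlap, and the difference was not tested.

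Few other promoter motifs were found in the 10 main summit windows, searched on both strands with exact letters. The GC box GGGCGG lay in 4 of 10 (SSBP4, CELSR2, PCMTD2 and TMCO3), and in 35.9% of windows of the same length around 19727 canonical TSS of other protein-coding genes. The CCAAT box lay in 1, that of REEP4, against 9.34% of TSS windows. No window held the general E-box form CANNTG, in which N is any base and which includes CACGTG. It lay in 29.4% of TSS windows and in 31.1% of the 872 promoter summits without E-box or 7-mer. At the 34 promoter summits of other genes with the 7-mer and no E-box, it lay in 6 (17.6%). The E′-box CACGTT lay in none of the 10 windows, against 8.03% at the 872 summits. None held the cyclic AMP response element TGACGTCA, the ETS site CCGGAAG, the NRF1 site GCGCATGC or TATAAA. The D-box TTANGTAA, the forkhead site TGTTTAC, the AP-1 site TGANTCA and the androgen receptor half-site AGAACA were also absent. For 0 of 10 windows the interval reaches up to 27.8%, so for motifs present in a few percent of comparison windows the zeros set no useful limit. That interval also includes the 17.6% for CANNTG at the 34 summits.

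Outside the 10 genes, which were chosen for holding it, the 7-mer was more frequent at promoter summits without an E-box than 1000 bp away. It lay within 50 bp of 34 of 906 such summits (3.75%, interval 2.70 to 5.20%), and in 24 of 1812 windows centred 1000 bp to either side of them (1.32%, interval 0.892 to 1.96%). At promoter summits with an E-box it lay in 6 of 728 (0.824%, interval 0.378 to 1.79%), close to the 0.687% of their own flanking windows. Around canonical TSS of other protein-coding genes its share was 1.01% (200 of 19727), and at summits over 1 kb from a TSS it was 1.78% (16 of 899). Of those distant summits, the ones without an E-box held it in 11 of 411 cases (2.68%, interval 1.5 to 4.73%), which overlaps the interval at promoter summits without an E-box. The word was found with the help of these same data, so the shares are descriptions of this list and not a test of the word.

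The C-rich extension seen in the 10 genes sharpened this contrast. The 7-mer preceded by CC and then C or G lay at 19 of the 906 other promoter summits without an E-box (2.1%, interval 1.35 to 3.25%). It lay in 1 of the 1812 flanking windows (0.0552%) and in 23 of 19727 TSS windows (0.117%). None of 728 promoter summits with an E-box held it, for which 3 counts of the total give a limit of 0.412% and the Wilson interval an upper bound of 0.525%. Of the 34 summits of other genes with the 7-mer, 19 had the extension (55.9%, interval 39.5 to 71.1%). In the 1812 windows flanking the 906 summits, 24 held the 7-mer and 1 of these held the extension, a small base. In the flanking windows of all peaks of other genes, a wider set, 1 of 61 copies had it (1.64%). At canonical TSS, 24 of 205 copies did (11.7%). Sequence differed between these places in other ways too, since the GC box GGGCGG lay in 11.3% of the 1812 flanking windows and in 39.8% of the 872 summits without E-box or 7-mer. The part of base composition in these contrasts was not tested.

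**Figure D3:**
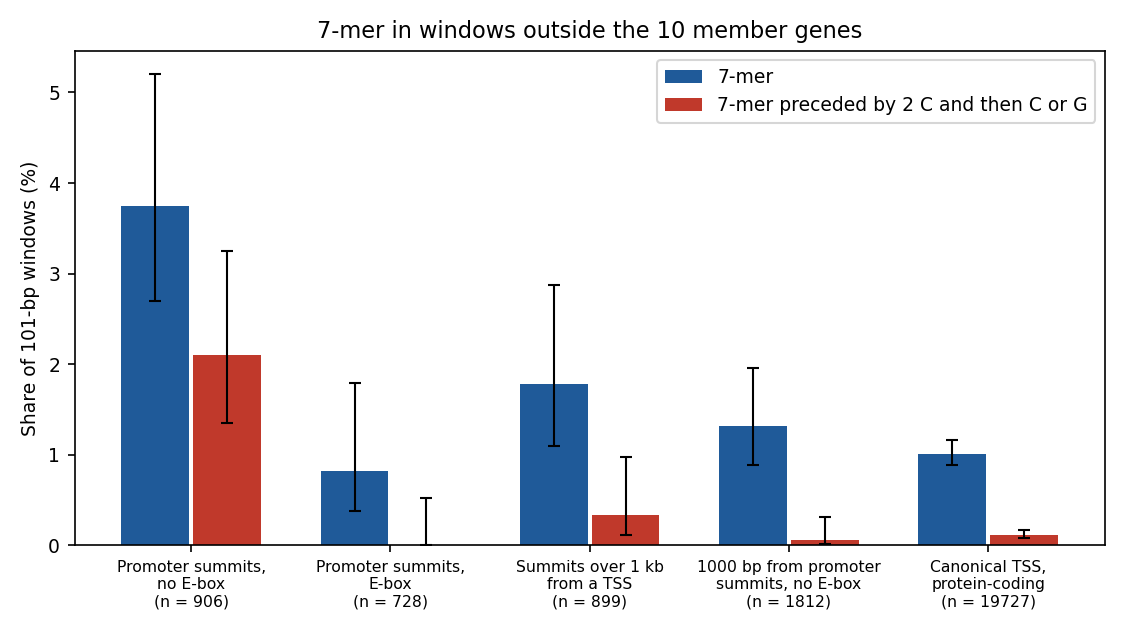
Share of windows of 50 bp on each side of a summit, flanking point or TSS, in percent, that hold the 7-mer CTTTAAG (blue) and the 7-mer preceded by CC and then C or G (red), with the 10 genes left out; error bars are Wilson 95% intervals and n is the number of windows. Promoter summits without an E-box stand highest in both colours, at 3.75% and 2.1%.

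Most single-base changes to the word went with no excess. Of its 19 distinct single-base variants, 2 were more frequent at the 906 summits than 1000 bp away. These were CCTTAAG (0.883% against 0.607%, ratio 1.45) and CTCTAAG (0.773% against 0.662%, ratio 1.17). The other 17 had ratios of 0 to 0.727, compared with 2.83 for CTTTAAG itself. Among words of 7 bases with at most 2 G or C that were held by at least 20 of these summits, of which there were 4, CTTTAAG had the highest ratio, but among all 1069 words held by at least 20 of them it ranked 309th. The others of those 4 words, CCTTTAA (2.21), CCTTAAA (1.53) and TCTTAAA (1.52), each share 6 consecutive bases with CTTTAAG or its reverse complement.

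Copies of the 7-mer were concentrated close to the summits that lacked an E-box. Around the 906 summits of other genes, the word occurred 0.397 times per kb and summit within 25 bp and 0.419 times from 25 to 50 bp. The rate was 0.188 from 50 to 100 bp, 0.171 from 100 to 200 bp and 0.125 from 200 to 500 bp. In bins of 25 bp the decline was uneven, with 0.11 from 75 to 100 bp (5 copies) and 0.265 from 175 to 200 bp (12 copies). Around the 728 summits with an E-box it did not rise towards the summit, at 0.0549 within 25 bp, 0.165 from 50 to 100 bp, where it was highest, and 0.105 from 200 to 500 bp. That highest rate came from 12 copies, 9 of them from 75 to 100 bp. In the 10 genes, the centre of the 7-mer lay 3 bp (ASH2L) to 44 bp (PCMTD2) from the summit, with a median of 18 bp. A copy near several summits was counted at each of them.

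**Figure D4:**
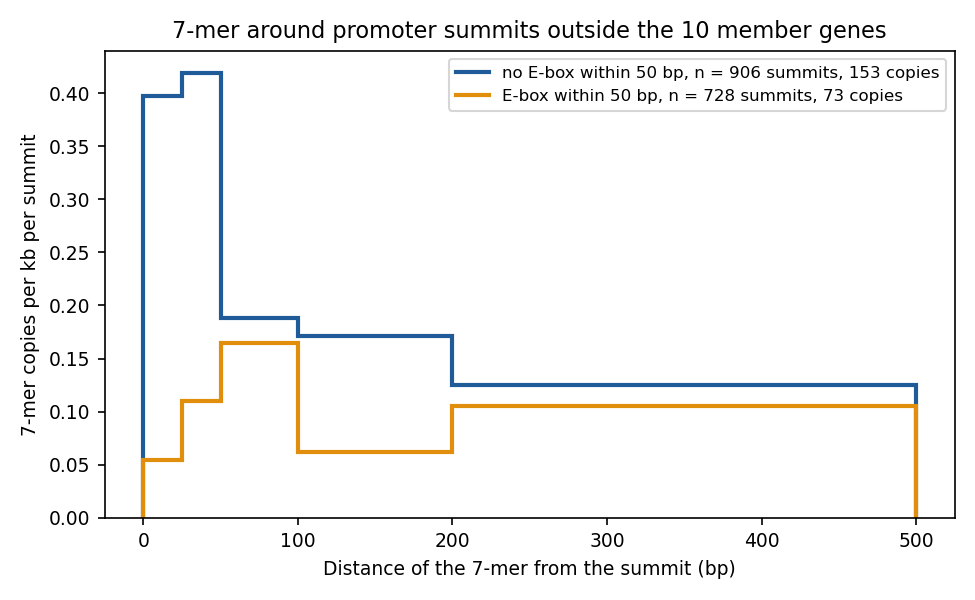
Copies of the 7-mer per kb and summit (vertical axis) by distance from the summit in bp (horizontal axis) for promoter summits outside the 10 genes. Summits without an E-box (blue) step down from 0.397 and 0.419 within 50 bp to 0.125 at 200 to 500 bp, and summits with an E-box (orange) show no such step.

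The share of summits with the 7-mer was also counted by strength outside the 10 genes. When all promoter peaks were divided into 5 groups of equal size by fold enrichment, the share of summits without an E-box that held the word was 4.64% in the weakest group (11 of 237), 0.481% in the second (1 of 208), 3.41% in the third (7 of 205), 5.44% in the fourth (8 of 147) and 6.42% in the strongest (7 of 109). The intervals of the weakest group (2.61 to 8.12%) and of the strongest group (3.15 to 12.7%) overlapped widely. The 10 main peaks all fell in the strongest group and were left out of these counts, as were the weaker peaks of the same genes. Since they were every peak of this kind with the 7-mer at a fold enrichment of 9.22 or more, the choice of genes lowered the share in the strongest group, and no relation between strength and the word can be read from these shares.

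Most copies of the word at promoters were not under a CRY1 peak. Within 250 bp of the canonical TSS of other protein-coding genes, 37 of 958 copies of CTTTAAG lay in a peak (3.86%, interval 2.81 to 5.28%). With the C-rich extension the share was 18 of 119 (15.1%, interval 9.79 to 22.6%). For CACGTG it was 446 of 2326 (19.2%, interval 17.6 to 20.8%). The extended word and the E-box thus had overlapping intervals, while the bare 7-mer lay below both. The extension was read from sites in this same peak list, whereas CACGTG was counted without flanking bases, so these shares are unlike measures.

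Of the 10 strongest promoter peaks of other genes with the 7-mer and no E-box, 7 had the extended form. After ERRFI1 and DAGLB, these were RCAN1, an inhibitor of calcineurin (fold enrichment 8.86, chr21:35987378-35987661), ZNF44 (8.54, chr19:12405802-12405993), ETHE1, a mitochondrial sulfur dioxygenase (7.53, chr19:44031387-44031728), ZNF628 (7.04) and ANKRD13B (6.19). OSGIN1 (8.77), ENDOG, a mitochondrial nuclease (7.97), and HYAL2 (6.69) had the 7-mer without the extension. In all 10 the word lay within 46 bp of the summit, and none of these peaks held CACGTG. Of the 10 summits, 6 lay upstream of the nearest TSS (ERRFI1, DAGLB, RCAN1, OSGIN1, ZNF44 and ETHE1) and 4 downstream.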

How the data were processed

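The deposited list holds CRY1 peaks in C4-2 cells from 2 immunoprecipitates, with 1 input library. The authors mapped the reads to hg19 with bowtie2, keeping its defaults, and ran MACS2 once over both replicates together with a q threshold of 0.05. For each peak they deposited a fold enrichment (a linear ratio) and a −log10 q. Use of the input as control is presumed, and the handling of duplicate reads was not given in the sources used here. A pooled call hides peaks present in a single replicate.

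Here, GRCh37 sequence and GENCODE release 44 mapped to GRCh37 were read with pysam 0.24.0 and pandas 2.3.3. The 2549 peaks on chromosomes were used. Windows spanned 50 bp on each side of the summit, and motifs were counted on both strands. The shared word was the 7-mer held by most members; the search was checked on simulated data. Named peaks outside the members are the 10 strongest with the 7-mer and those beside the weakest member. The members and lists were chosen with earlier results of these data known. Canonical TSS are Ensembl canonical transcript starts. Wilson 95% intervals came from scipy 1.17.1. The sequences of REEP4 and ASH2L are not reported here.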

Additional observations from a re-analysis of the deposited data

How the results depend on the processing

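All 10 genes kept a peak with a TSS distance of 500 bp or 5 kb, with protein-coding or basic transcripts, and at q under 0.01. The number of their 16 summits with the 7-mer moved from 10 to 6 with 25 bp on each side and to 2 at the midpoint of the peak, where a smaller or differently centred window holds fewer of the sites by construction. The share of other promoter summits without an E-box that held it moved from 3.75% to 1.42% with 25 bp, to 5.30% with 100 bp and to 1.97% at the midpoint. The other alternatives moved each result by less than its interval, its spread or 1.5 times. No paired analysis was possible because the values come from 1 pooled list, and leaving out a replicate was not possible for the same reason. Without read counts, no limit from depth can be given.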

Other observations

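Promoter summits without an E-box outside the 10 genes were led by other words. Of 1069 words of 7 bases held by at least 20 of the 906 summits, GCGTGAC had the highest ratio to the windows 1000 bp away (3.64% against 0.221%, ratio 16.5), and CTTTAAG ranked 309th (2.83). Of the 12 highest, 9 contained CGTG or its reverse complement CACG. The share of such words among all 1069 is not given, so this count has no background beside it. CGTG lay at 59.4% of the 872 summits without E-box or 7-mer (518, Wilson 95% interval 56.1 to 62.6%) and at 33.9% of the flanking windows (615 of 1812, interval 31.8 to 36.2%). Of those 872, the 63 with a fold enrichment at or above the weakest of the 10 genes held CGTG in 40 cases (63.5%, interval 51.1 to 74.3%). At the 34 summits of other genes with the 7-mer it lay at 41.2% (14, interval 26.4 to 57.8%), and at the 10 main summits in 5 (50%, interval 23.7 to 76.3%). Its share around 19727 canonical TSS of other protein-coding genes was 41.1%, within both of these intervals. No test was run on these counts, and base composition was not matched.

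The strongest promoter summits without an E-box within 50 bp did not hold the 7-mer. They were at CAMKK1 (fold enrichment 24.0, with 3 CACGTG elsewhere in the peak), PER2 (22.8, with 1) and ENSG00000289923 (22.2, with 0). Of the 63 summits of this kind at or above the weakest of the 10 genes, 31 (49.2%) held CACGTG elsewhere in a peak of median width 748 bp, which offers more sequence than the 442 bp of the 10 main peaks.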
